A study of Homo sapiens with 10 samples.

Results

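Of the 76044 regions marked by acetylation of lysine 27 of histone H3 (H3K27ac) in 2 HER2 breast cancer cell lines, 2919 (3.84%) lay at the promoter of a long non-coding RNA (lncRNA) gene and away from the promoters of protein-coding genes. The regions were obtained by merging the peaks of all 8 peak lists that overlapped by 1 bp or more on chromosomes 1 to 22 and X. A merged region was kept if a transcription start site (TSS) of a basic GENCODE release 44 transcript of a lncRNA gene lay within 1 kb of it, and if every basic TSS of a protein-coding gene lay more than 2.5 kb away. No measured level entered this choice. The same merged set held 12348 regions within 1 kb of a protein-coding TSS, 57633 distal regions more than 2.5 kb from any basic TSS of either kind, and 3144 others.

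SKBR3 and MDA-MB-453 are established lines of HER2 breast cancer. The question was how the cytokine TWEAK, the ligand of the receptor Fn14, alters active chromatin in them. All cells, untreated ones included, were starved for 8 h in optimem. Treated cells then received 10 ng/ml TWEAK for 48 h, replenished at 24 h, and each of the 4 groups (SKBR3 untreated, SKBR3 TWEAK, MDA-MB-453 untreated, MDA-MB-453 TWEAK) was sequenced as 2 libraries. Each list held between 36148 and 51687 peaks on the chromosomes used, the most in SKBR3 TWEAK replicate 2, whose list stands apart in length. The epithelial and luminal genes ERBB2 (HER2 itself), KRT8, KRT18, EPCAM, GATA3, FOXA1, TFAP2A and SPDEF had a promoter peak in all 8 lists. PTPRC and PECAM1, markers of immune and endothelial cells, had a peak in 0 lists, whereas VIM and ZEB1 had one in 7 lists and COL1A1, a fibroblast collagen gene, in 8. Their part in the results was not tested. Per the study's methods the libraries of a group are biological replicates, and each line stands for 1 tumour only.

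Active promoters and enhancers carry H3K27ac, a mark placed by the acetyltransferases p300 and CBP. LncRNA genes are transcribed by RNA polymerase II, many at low levels and in few cell types, and a good number start within enhancers rather than at promoters rich in CpG dinucleotides. Some have known roles as scaffolds, as hosts of small RNAs or as regulators of a neighbouring gene, but most have none assigned. TWEAK signals through Fn14 to the transcription factor families NF-κB and AP-1.

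The TSS windows of 10 lncRNAs show the range of sequence that the regions cover (hg38, 250 bases before to 50 after the TSS, 5′ to 3′ on the strand of the gene, CpG dinucleotides in capitals). Both windows from regions present in all 8 lists come from the highest ranked such regions for which a window is printed. LINC02901, in a region 49944 bp from the TSS of EZR (distances to a named gene run from the midpoint of the region), holds 37 CpG in its window, and LINC01348 holds 12.
LINC02901 (chr6:158869598-158869897, plus strand): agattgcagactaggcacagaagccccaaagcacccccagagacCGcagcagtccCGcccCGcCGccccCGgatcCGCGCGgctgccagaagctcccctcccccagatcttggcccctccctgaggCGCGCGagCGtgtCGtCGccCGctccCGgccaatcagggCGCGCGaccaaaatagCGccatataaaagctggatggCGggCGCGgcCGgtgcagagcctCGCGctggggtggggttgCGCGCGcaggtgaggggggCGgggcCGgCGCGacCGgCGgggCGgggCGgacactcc
LINC01348 (chr1:235069748-235070047, minus strand): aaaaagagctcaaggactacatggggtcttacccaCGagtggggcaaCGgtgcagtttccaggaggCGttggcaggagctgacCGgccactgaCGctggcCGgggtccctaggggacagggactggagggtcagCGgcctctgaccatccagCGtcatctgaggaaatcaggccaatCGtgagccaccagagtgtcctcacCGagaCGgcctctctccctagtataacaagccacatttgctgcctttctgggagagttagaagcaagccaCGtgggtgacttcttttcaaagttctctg
From the regions held by all SKBR3 lists and by 0 lists of MDA-MB-453, ENSG00000287886 holds 11 CpG and ENSG00000286505, antisense within SLC28A1, holds 3.
ENSG00000287886 (chr20:53738478-53738777, plus strand): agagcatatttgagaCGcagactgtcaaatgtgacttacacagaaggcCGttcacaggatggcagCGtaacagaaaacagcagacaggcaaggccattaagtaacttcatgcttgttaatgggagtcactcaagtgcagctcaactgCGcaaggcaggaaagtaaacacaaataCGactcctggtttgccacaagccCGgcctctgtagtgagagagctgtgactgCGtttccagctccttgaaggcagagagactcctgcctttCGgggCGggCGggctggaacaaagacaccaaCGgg
ENSG00000286505 (chr15:84915656-84915955, minus strand): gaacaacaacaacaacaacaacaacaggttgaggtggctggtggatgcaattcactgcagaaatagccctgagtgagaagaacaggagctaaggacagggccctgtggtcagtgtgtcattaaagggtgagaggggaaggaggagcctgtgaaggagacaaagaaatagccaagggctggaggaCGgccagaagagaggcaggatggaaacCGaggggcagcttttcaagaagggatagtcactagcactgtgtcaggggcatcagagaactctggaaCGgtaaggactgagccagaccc
Of the regions held by all MDA-MB-453 lists and by 0 of SKBR3, ENSG00000289969, antisense within NFIB, holds 17 CpG, and ENSG00000286728 on chromosome 2 holds 38.
ENSG00000289969 (chr9:14346153-14346452, plus strand): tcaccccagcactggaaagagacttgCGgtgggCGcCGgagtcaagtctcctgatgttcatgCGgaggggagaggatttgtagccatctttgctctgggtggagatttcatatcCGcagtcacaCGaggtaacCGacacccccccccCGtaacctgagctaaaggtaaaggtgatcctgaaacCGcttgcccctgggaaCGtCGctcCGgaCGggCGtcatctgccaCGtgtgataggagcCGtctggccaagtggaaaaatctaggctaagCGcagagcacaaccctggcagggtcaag
ENSG00000286728 (chr2:45169366-45169665, plus strand): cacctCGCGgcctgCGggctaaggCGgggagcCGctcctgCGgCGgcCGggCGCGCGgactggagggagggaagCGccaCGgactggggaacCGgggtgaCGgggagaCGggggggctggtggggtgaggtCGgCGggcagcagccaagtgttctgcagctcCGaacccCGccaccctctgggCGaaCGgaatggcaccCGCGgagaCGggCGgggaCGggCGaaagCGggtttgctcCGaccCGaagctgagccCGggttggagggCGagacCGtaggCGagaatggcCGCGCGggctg
Among regions in both TWEAK lists and neither untreated list of SKBR3, ENSG00000284808 holds 1 CpG and ENSG00000286587 holds 0.
ENSG00000284808 (chr1:61480837-61481136, plus strand): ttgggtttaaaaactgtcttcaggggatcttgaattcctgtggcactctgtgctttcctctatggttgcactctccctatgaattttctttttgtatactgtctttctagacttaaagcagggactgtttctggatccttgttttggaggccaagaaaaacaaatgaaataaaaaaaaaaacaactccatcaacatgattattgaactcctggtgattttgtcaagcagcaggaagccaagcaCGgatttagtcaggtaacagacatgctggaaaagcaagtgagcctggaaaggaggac
ENSG00000286587 (chr20:54178164-54178463, plus strand): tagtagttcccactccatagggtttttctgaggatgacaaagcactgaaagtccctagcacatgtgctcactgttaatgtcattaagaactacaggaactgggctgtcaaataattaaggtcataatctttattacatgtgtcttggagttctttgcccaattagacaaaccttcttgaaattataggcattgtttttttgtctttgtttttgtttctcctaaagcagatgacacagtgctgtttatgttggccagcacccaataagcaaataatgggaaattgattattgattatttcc
Among those gained in the same sense in MDA-MB-453, HLA-L holds 13 CpG and ZNF516-AS1, antisense within ZNF516, holds 33.
HLA-L (chr6:30259314-30259613, plus strand): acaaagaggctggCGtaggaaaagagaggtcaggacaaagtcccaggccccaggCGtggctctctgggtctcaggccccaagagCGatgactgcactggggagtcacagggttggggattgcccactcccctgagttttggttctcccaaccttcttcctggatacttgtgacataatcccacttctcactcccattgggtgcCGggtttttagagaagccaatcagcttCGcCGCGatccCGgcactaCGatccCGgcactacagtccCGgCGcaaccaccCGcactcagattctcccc
ZNF516-AS1 (chr18:76491379-76491678, plus strand): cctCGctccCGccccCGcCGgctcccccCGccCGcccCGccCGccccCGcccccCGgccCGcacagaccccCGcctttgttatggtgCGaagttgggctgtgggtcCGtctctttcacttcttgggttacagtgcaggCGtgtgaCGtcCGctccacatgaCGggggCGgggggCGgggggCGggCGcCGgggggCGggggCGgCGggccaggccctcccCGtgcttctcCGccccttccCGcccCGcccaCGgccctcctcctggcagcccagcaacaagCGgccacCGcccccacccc
The windows of LINC02901 and ENSG00000286728 are dense in CpG, while those of the pair gained in SKBR3 are nearly free of them. None of the 10 windows overlaps an exon of a protein-coding gene. The TSS of ENSG00000286587 lies 858 bp before its region and that of ZNF516-AS1 lies 178 bp from its region, so neither TSS lies within the marked region. The window of ENSG00000286587 lies outside its region and that of ZNF516-AS1 lies partly within it.

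These letters reflect a wider pattern. The ratio of observed to expected CpG, measured in the 1000 bp around the midpoint of a region, had a median of 0.261 in the lncRNA promoter regions, against 0.664 at protein-coding promoters and 0.197 in distal regions. A ratio of 0.6 or more was found in 462 of the 2919 regions (15.8%), against 57.2% of protein-coding promoters, 1.26% of distal regions and 11% of all merged regions. Members in all 8 lists reached it in 256 of 986 (26.0% against 33.9% of all regions in all 8 lists). Those specific to MDA-MB-453 did so in 63 of 270 (23.3% against 7.54% of all regions specific to it). Those specific to SKBR3 did so in 39 of 520 (7.50% against 2.89% of all regions specific to it). The share was thus higher in MDA-MB-453-specific than in SKBR3-specific regions among all regions too. The sequence TATAAA on either strand occurred in 13.5% of the members' 300-base TSS windows, against 17.6% of the 22370 such windows at all lncRNA TSS this far from a protein-coding TSS.

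Most of the genes at these regions carry no assigned symbol. The 2919 regions lay within 1 kb of a TSS of 3050 lncRNA genes, of which 1060 have a symbol other than an Ensembl identifier. Of the 15060 lncRNA genes with a TSS beyond 2.5 kb of any protein-coding TSS, 3038 (20.2%) lay at a member, while 65.0% of protein-coding genes lay within 1 kb of some merged region. By the gene that names them, 1824 regions (62.5%) had no symbol, 494 had a LINC symbol, 297 were named as antisense to a coding gene, 28 were microRNA hosts and 14 were snoRNA hosts. Outside protein-coding genes lay 1944 regions, 726 named TSS ran antisense within a coding gene and 249 ran in its sense direction. The median distance from a region to the nearest protein-coding TSS was 38.4 kb, and 24.9% lay more than 100 kb away. The median width was 1944 bp, between the 2631 bp of protein-coding promoters and the 1188 bp of distal regions. A TSS fell inside 2004 of the regions (68.7%). Near the other limit, 207 (7.09%) lay 2.5 to 5 kb from a protein-coding TSS. The closest excluded regions were 1001 bp from a lncRNA TSS and 2487 bp from a protein-coding TSS.

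More lncRNA promoter regions were marked in SKBR3 than in MDA-MB-453. The untreated SKBR3 lists held 1940 and 1933 of them and the TWEAK lists 1954 and 2150. The untreated MDA-MB-453 lists held 1555 and 1600 and the TWEAK lists 1572 and 1582. All 4 SKBR3 lists exceeded all 4 MDA-MB-453 lists. The mean was 1994 ± 104 (SD, n = 4) in SKBR3 and 1577 ± 18.8 (SD, n = 4) in MDA-MB-453, a difference of 417 regions (exact two-sided permutation test, p = 0.0286, the smallest that 4 against 4 libraries allow). Without SKBR3 TWEAK replicate 2 it was 349 (exact permutation test, p = 0.0286). As a share of the regions in a list, however, members made up 4.64% ± 0.154 (SD, n = 4) in SKBR3 and 4.55% ± 0.0564 (SD, n = 4) in MDA-MB-453, a difference of 0.0980 percentage points (exact permutation test, p = 0.286). Length of the lists moved with the count, and with only the peaks at a −log10 q of at least 5 the difference was 52.8 regions (exact permutation test, p = 0.486). The share, in turn, differed by 0.469 percentage points once all lists were cut to the length of the shortest (exact permutation test, p = 0.0286). The share of protein-coding promoters was 5.63 percentage points lower in SKBR3 and that of distal regions 4.50 points higher (exact permutation tests, p = 0.0286 for both).

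**Figure D1:**
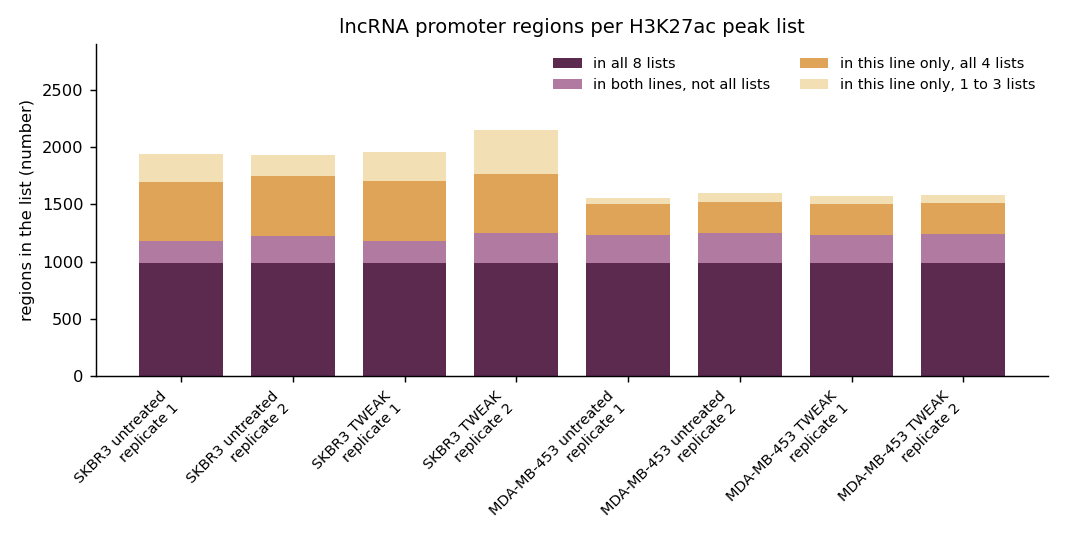
Number of lncRNA promoter regions in each of the 8 peak lists (bars, 1 per library), split by how many lists hold the region. Each bar has the same 986 regions of all 8 lists at its base, and the SKBR3 bars reach 1933 to 2150 against 1555 to 1600 in MDA-MB-453, with the largest top segment in SKBR3 TWEAK replicate 2.

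Both lines had a peak at 1325 of the 2919 members (45.4%). Of the 2919 regions, 986 (33.8%) were in all 8 lists, 339 more were in both lines, 1179 (40.4%) were in SKBR3 lists alone and 415 (14.2%) in MDA-MB-453 lists alone. Protein-coding promoters were in all 8 lists in 70.5% of cases and distal regions in 13.2%. Within a list, the share of members that at least 1 library of the other line also held was 60.7% ± 2.19 (SD, n = 4) in SKBR3 and 78.5% ± 0.424 (SD, n = 4) in MDA-MB-453. Over the 8 libraries this share was 21.0 percentage points lower than that of protein-coding promoters and 21.5 points higher than that of distal regions (exact two-sided sign-flip permutation tests, p = 0.00781 for both, the smallest that 8 libraries allow). The sign was the same in 8 of 8 libraries for each, but these come from 2 lines and are not 8 independent samples. Protein-coding promoters were shared at a mean of 89.5% in SKBR3 and 91.8% in MDA-MB-453, distal regions at 39.7% and 56.4%. The difference to protein-coding promoters thus depended on the line and ran from −31.1 to −12.9 points. That to distal regions ran from 19.3 to 22.8 points.

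Rank within a list placed the class in between as well. The percentile of a region is the rank of the −log10 q of its highest peak among all peaks of its list, 100 being the top. Median percentiles of members ran from 61.3 to 63.9 in SKBR3 and from 60.6 to 61.8 in MDA-MB-453. Protein-coding promoters had medians of 75.3 to 78.1 and distal regions of 37.8 to 43.0 over the same lists, so the classes did not overlap. Members ranked 14.4 percentile points below protein-coding promoters and 22.2 points above distal regions on average (exact sign-flip permutation tests over 8 libraries, p = 0.00781 for both). Here too the 8 libraries are not independent samples, since they come from SKBR3 and MDA-MB-453 alone.

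**Figure D2:**
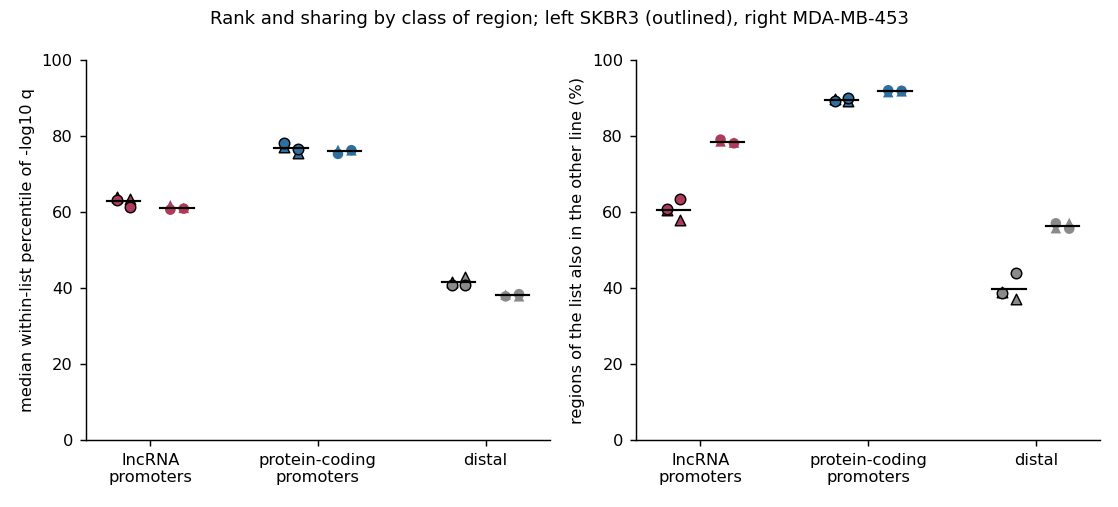
Median within-list percentile (left panel, 0 to 100) and percent of the regions of a list that the other line also holds (right panel) for 3 classes of region. Points are libraries, circles untreated and triangles TWEAK, with SKBR3 outlined on the left of each pair and MDA-MB-453 on the right, and bars are means of 4 libraries. The lncRNA promoters lie between the other classes in both panels, and their shared percent is lower in SKBR3 (60.7%) than in MDA-MB-453 (78.5%).

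The overlap between libraries of a line was lower at lncRNA promoters than at coding ones and higher than in distal regions. The Jaccard index, the regions in both of a pair of lists over those in either, ran from 0.728 to 0.802 between SKBR3 libraries, from 0.891 to 0.907 between MDA-MB-453 libraries and from 0.456 to 0.493 between lines. For protein-coding promoters these ranges were 0.900 to 0.923, 0.964 to 0.966 and 0.781 to 0.810, and for distal regions 0.525 to 0.634, 0.785 to 0.793 and 0.239 to 0.277. A single list held 431 members (14.8% against 23.8% of all regions). Of the 2504 members present in SKBR3, 203 occurred in TWEAK replicate 2 alone of its lists (8.11% against 12.3% of all regions). Each of the other SKBR3 lists alone held 49 to 118 (1.96% to 4.71% against 3.55% to 7.78% of all regions).

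The strongest regions common to all lists included neighbours of well known genes. A region at ENSG00000286010, chr8:127665725-127673150, lies 65996 bp from the TSS of MYC, the proto-oncogene, and had a percentile of at least 99.9 in each of the 8 lists. Its fold enrichment over input was between 12 and 18.4 in the SKBR3 libraries and between 38.7 and 50.1 in MDA-MB-453, with no overlap. LINC02901, whose sequence opens the set above, occupies chr6:158866577-158872048 and has as its nearest coding gene EZR, which encodes the cytoskeletal linker ezrin. Its percentile was 99.6 to 99.9 in SKBR3 and above 99.9 in MDA-MB-453. LINC01348 (chr1:235058621-235085290), ENSG00000258473 near CIPC (chr14:77084420-77090984) and ENSG00000283696 (chr1:161397011-161400847) ranked next, with mean percentiles of 99.8, 99.8 and 99.7. The region of LINC01348 spans 26670 bp.

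Among the members, 520 (17.8%) were in all 4 SKBR3 lists and in 0 MDA-MB-453 lists, where the background over all merged regions was 14.1%. The reverse held for 270 (9.25%), against a background of 10.5%. At protein-coding promoters these shares were 5.90% and 5.69%. SKBR3-specific members had a median mean percentile of 53.9 and MDA-MB-453-specific ones of 45.3, both below the 73.3 of members in all 8 lists.

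ENSG00000287886, chr20:53732132-53745118, was the highest ranked SKBR3-specific member, with percentiles of 98.4 and 99.0 in the untreated and 98.8 and 99.7 in the TWEAK lists. Its nearest protein-coding TSS is that of ZNF217, a zinc finger oncogene of breast cancer, 144786 bp away. Then came ENSG00000286505 antisense within SLC28A1 (chr15:84907526-84916837), with percentiles of 97.5 to 98.7, and ENSG00000286407 (chr7:158942628-158958976), with 96.1 to 99.3. LINC02255 (chr15:74373952-74392520) lies 15590 bp from the TSS of CYP11A1, a steroid synthesis enzyme, and had percentiles of 97.2 to 98.0. ENSG00000266977 on chromosome 19 (chr19:27857796-27862386) is 1353060 bp from its nearest coding TSS and had 94.8 to 99.1. All 5 thus had a percentile of at least 94.8 in every SKBR3 list.

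In MDA-MB-453, ENSG00000289969 (chr9:14343024-14353683) led the specific members with percentiles of 97.4 to 97.8 and fold enrichments of 28.7 to 34.1. It is antisense within NFIB, a nuclear factor I gene. ENSG00000286728 (chr2:45165287-45173846), 160114 bp from the homeobox gene SIX2, had percentiles of 96.8 to 97.3. ENSG00000259914, antisense within CDH13, a cadherin gene, had 96.6 to 96.9 at chr16:83726477-83730770. LINC01852 (chr15:38071379-38074092) had 94.4 to 96.5. ENSG00000242540, in the sense direction within SOX11 and 5014 bp from the TSS of that gene, had 94.3 to 95.3 at chr2:5694944-5699853. Whether this mark belongs to the lncRNA or to SOX11 was not tested. The last of these begins 2560 bp from that TSS, close to the limit of the class. The spread between libraries was narrower than for the SKBR3 set.

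The nearest protein-coding promoter did not share this specificity in most cases. For 65.2% of the SKBR3-specific members it lay at a peak in both lines, and for 10.0% at a peak in SKBR3 alone. For the MDA-MB-453-specific members these shares were 51.9% in both lines and 12.6% in MDA-MB-453 alone. The distal regions of each line gave 65.3% and 10.4%, and 52.5% and 12.1%. By chromosome, SKBR3-specific members made up 16 of 64 members on chromosome 20 (25% against 17.9% of all regions there) and 34 of 138 on chromosome 11 (24.6% against 15.2% of all regions there). MDA-MB-453-specific members reached 12 of 66 on chromosome 13 (18.2% against 13.6% of all regions there). These chromosomes were picked after their values were seen.

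At the 986 members in all 8 lists the strength of the mark was compared as log2 fold enrichment. The test was limma across all 17704 regions in all 8 lists, with Benjamini-Hochberg adjustment and an adjusted p under 0.05 as the threshold. Between lines, 711 members (72.1%) passed, against 66.5% of all regions. Of these, 366 were higher in SKBR3 (37.1% against 32.3% of all regions) and 345 were higher in MDA-MB-453 (35.0% against 34.2% of all regions). The median difference, SKBR3 minus MDA-MB-453, was 0.04 on the log2 scale for members and −0.02 for all regions, so the changes went both ways.

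LINC02870 (chr10:132444061-132453171) had fold enrichments of 18.2 and 22.4 in untreated and 21.3 and 17.1 in TWEAK-treated SKBR3. Its MDA-MB-453 values were 3.27, 2.98, 3.51 and 3.61, and the groups did not overlap. After normalisation it was 6.91-fold higher in SKBR3 (log2 2.79 ± 0.09, SE; limma adjusted p = 6.41e-08). ENSG00000251200 (chr4:169939021-169949899) was 9.17-fold higher (log2 3.20 ± 0.09, SE; adjusted p = 6.41e-08). SCAT8 and ENSG00000237429 (chr1:27524690-27547706) followed at log2 2.30 and 2.02. In the other direction stood DLEU2, which hosts a pair of tumour suppressive microRNAs. Its region at chr13:50121857-50127191 had fold enrichments of 3.77 to 5.15 in the SKBR3 libraries and of 39.7 to 49 in those of MDA-MB-453. The log2 difference was −3.02 ± 0.14 (SE; limma adjusted p = 2.28e-07). ENSG00000276854 on chromosome 13, LINC02478 near ITGB6, an integrin gene, and LINC01093 near ACSL1, an acyl-CoA synthetase gene, were lower in SKBR3, with log2 differences of −2.09, −1.86 and −2.04.

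With TWEAK, few members in either line changed between present and absent. In SKBR3 the mean number was 1936.5 ± 4.95 without and 2052 ± 139 with TWEAK (SD, n = 2 each), a difference of 115.5 that did not exceed what 2 against 2 libraries can resolve (exact permutation test, p = 0.333, the smallest possible). Without TWEAK replicate 2 the difference was 12.5. In MDA-MB-453 the means were 1577 ± 7.07 with TWEAK and 1577.5 ± 31.8 without (SD, n = 2 each; exact permutation test, p = 1). A gained region was in both TWEAK lists and neither untreated list of a line, and a lost region the reverse. Of the 2504 members with a peak in SKBR3, 88 were gained (3.51%; background 4.64%) and 33 lost (1.32%; background 1.39%). Of the 1740 in MDA-MB-453, 16 were gained (0.920%; background 1.27%) and 23 lost (1.32%; background 1.31%). Protein-coding promoters were gained in SKBR3 at a rate of 0.972% and distal regions at 5.58%. With 1 TWEAK list in place of both, 133 members (5.87% against 10.1% of all regions) were gained without TWEAK replicate 2 and 293 (11.9% against 17.6% of all regions) without TWEAK replicate 1.

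Gained members of SKBR3 were of modest rank and poor in CpG, as were all regions gained there. Their median mean percentile was 34.5 (30.9 for all regions gained in SKBR3) and their median width 1157 bp (1169 bp). A CpG ratio of 0.6 was reached by 2 of 88 (2.27% against 0.989% of all regions gained). A TSS lay inside 48 of them. ENSG00000284808 (chr1:61479937-61482615), 77200 bp from NFIA, a nuclear factor I gene, was absent from both untreated lists and had percentiles of 83.1 and 96.6 in the TWEAK lists, with fold enrichments of 8.15 and 15.2. ENSG00000286587 lies 6376 bp from the TSS of CYP24A1, the enzyme that breaks down active vitamin D. Its region, chr20:54179272-54181453, had percentiles of 71.4 and 95.1. ENSG00000203266 (chr20:57108186-57109887), 157305 bp from BMP7, a bone morphogenetic protein gene, had 63.3 and 87.8. ENSG00000291297 (chr15:62240493-62242295), 76109 bp from C2CD4B, had 69.5 and 74.8. TWEAK replicate 2 held the higher value at all 4, and 0 MDA-MB-453 lists held any of them.

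Regions lost in SKBR3 ranked lower. LINC01312 (chr6:133837898-133838517) had percentiles of 57.0 and 29.7 in the untreated SKBR3 lists, ENSG00000237947 had 39.1 and 38.2, ENSG00000279151 had 45.1 and 29.3, and ENSG00000285639 had 17.2 and 54.1. ENSG00000237947 was strong in MDA-MB-453, at 94.4 to 94.9 in all 4 lists. Members gained in MDA-MB-453 had a median mean percentile of 22.5, against 19.1 for those lost in SKBR3. HLA-L, a class I gene fragment of the major histocompatibility complex, reached 33.1 and 26.3, and ZNF516-AS1 reached 28.6 and 28.3. FER1L6-AS2 (32.2 and 24.8) and ENSG00000237734 (35.7 and 21.1) were also gained there, and both had peaks in all 4 SKBR3 lists. Lost in MDA-MB-453 were ENSG00000260177 (39.1 and 35.4), LINC00869 (16.9 and 37.3), TEKT4P2 (37.9 and 14.1) and ENSG00000286368 (20.3 and 26.8), each present in all 4 SKBR3 lists. HLA-L and TEKT4P2 are members of families with closely related copies, so the placing of their reads is uncertain.

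Measured as enrichment at the 986 members in all lists, TWEAK gave calls in SKBR3 alone. Of these members, 15 passed in SKBR3 (1.52%), against 1.06% of all regions. With TWEAK 14 were higher (1.42% against 1.01% of all regions) and 1 was lower (0.101% against 0.0508% of all regions). The calls depended on single libraries, and their number ranged from 0 without untreated replicate 2 (0.0222% of all regions called) to 105 without TWEAK replicate 1 (10.6% against 8.50% of all regions), while 5 were called without TWEAK replicate 2 (0.511% against 0.172% of all regions). Distal regions were called in 1.83% of cases and protein-coding promoters in 0.310%. In MDA-MB-453 limma called 0 members (0% of all regions). There 14 of 986 had an unadjusted p under 0.05 (1.42% against 1.12% of all regions). The difference between the TWEAK effects of the lines was called at 0 members (0% of all regions). For it 101 had an unadjusted p under 0.05 (10.2% against 8.37% of all regions), so the lines were not shown to differ in their response here.

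EGOT, an antisense lncRNA within ITPR1, a calcium channel gene, had fold enrichments of 4.84 and 5.74 in untreated SKBR3 and of 10.8 and 12.9 with TWEAK. In MDA-MB-453 the same region, chr3:4738062-4764043, had 23.9 and 23.5 without and 22.6 and 20.3 with TWEAK. In SKBR3 it rose 2.31-fold (log2 1.21 ± 0.15, SE; limma adjusted p = 0.0128). LINC00944 (chr12:126771709-126773060) had 3.22 and 3.47 without and 6.51 and 6.58 with TWEAK in SKBR3, a rise of 2.10-fold (log2 1.07 ± 0.13, SE; limma adjusted p = 0.00986). Its MDA-MB-453 values were 3.95 and 4.0 without and 5.08 and 5.87 with TWEAK, again with the treated pair above the untreated pair.

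ENSG00000278765 near NFE2L1, a stress response factor gene, had 3.28 and 3.65 in untreated and 5.88 and 6.58 in treated SKBR3 (limma adjusted p = 0.0160). ENSG00000259252 (chr15:70194946-70199610), 99102 bp from TLE3, a corepressor gene, had 7.83 and 12 against 21.0 and 23 (limma adjusted p = 0.0191). BFSP2-AS1 had 3.98 and 4.50 against 7.19 and 7.92 (limma adjusted p = 0.0198). LINC01714 and ENSG00000288816, neighbours on chromosome 1 near SLC45A1, rose 2.17-fold and 2.13-fold. The others that rose were ENSG00000258081, LINC02015, ENSG00000289993, ENSG00000225195, ENSG00000289377, ENSG00000289141 and LNCATV, by 1.64-fold to 2.28-fold. At all 14 both TWEAK values were above both untreated values. ENSG00000286586 (chr12:121686460-121687925) fell, from 5.56 and 7.21 to 2.97 and 4.36 (log2 −0.95 ± 0.18, SE; limma adjusted p = 0.0430), and with median centring it no longer passed (limma adjusted p = 0.0518).

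**Figure D3:**
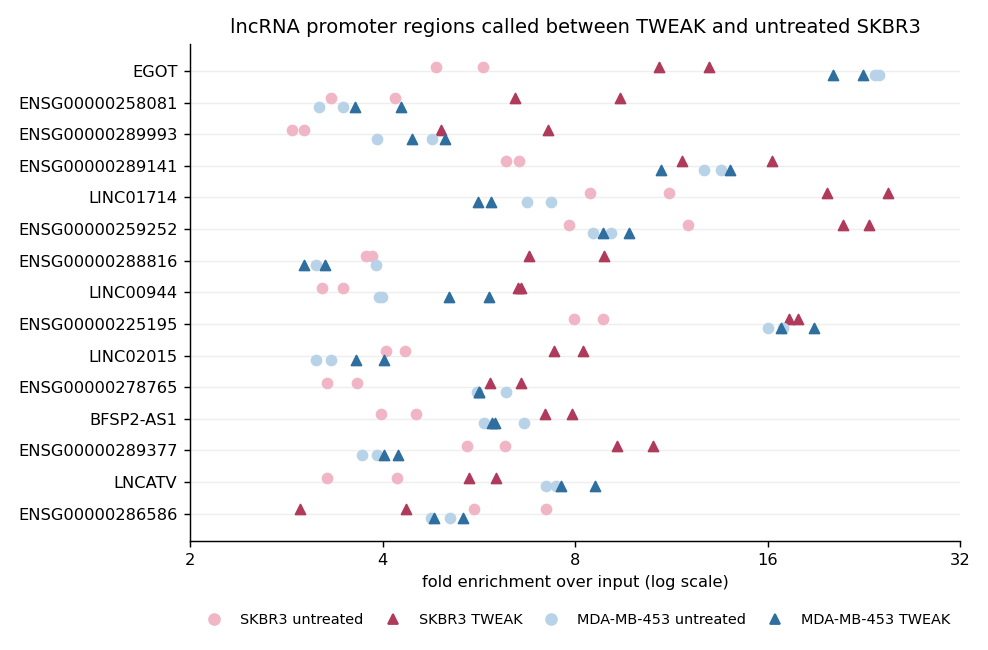
Fold enrichment over input (horizontal, log scale) of the 15 lncRNA promoter regions called by limma between TWEAK and untreated SKBR3, 1 point per library, named on the vertical axis. Treated SKBR3 libraries (dark triangles, upper row of each line) lie to the right of untreated ones (light circles) at all but ENSG00000286586, and MDA-MB-453 libraries (blue, lower row) of both treatments lie nearer to each other, as at EGOT with 20.3 to 23.9.

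Sequence of the gained members was searched for NF-κB and AP-1 motifs. Both strands of the 1000 bp around the midpoint were read, for the NF-κB consensus of 10 positions and for TGACTCA or its reverse complement TGAGTCA (AP-1). NF-κB matches occurred in 497 of the 2919 members (17.0%) and in 13.8% of all merged regions, windows of the same length. They occurred in 33 of the 88 members gained in SKBR3 (37.5%), against 29.2% of all regions gained there, and in 5 of the 33 lost (15.2% against 11.9% of all regions lost). AP-1 matches occurred in 662 members (22.7% against 23% of all regions), in 37 of the 88 gained (42.0% against 36.4% of all regions gained) and in 4 of the 33 lost (12.1% against 16.7% of all regions lost). In MDA-MB-453 an NF-κB match occurred in 5 of the 16 gained members (31.2% against 16.3% of all regions gained) and in 7 of the 23 lost (30.4% against 7.32% of all regions lost). AP-1 matches occurred there in 3 gained members (18.8% against 23.4% of all regions gained) and in 8 lost ones (34.8% against 22.9% of all regions lost). When 1 of the SKBR3 lists was left out, the share of gained members with an NF-κB match fell to 23.9% for TWEAK replicate 1 and to 27.1% for TWEAK replicate 2. For the untreated lists it was 29.0% (replicate 1) and 33.5% (replicate 2). It was 36.8% with peaks of −log10 q of at least 5. The motifs can overlap other motifs and were not tested against the composition of the windows.

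Matches from the gained and raised members are shown because they are the letters counted here, with the motif in capitals between 10 flanking bases, on the plus strand of hg38. In ENSG00000284808 the NF-κB match is at chr1:61481329-61481338, and ENSG00000286587 has a pair, at chr20:54179908-54179917 and chr20:54180537-54180546. The third region, ENSG00000203266, has another pair, of which the match at chr20:57109363-57109372 is printed.
ENSG00000284808: ggattggttaGGAAAGTCCCtccacgtcct
ENSG00000286587, first match: gtgaaaattgGGGAAATTCCatgacaggat
ENSG00000286587, second match: ttagaataatGGGACTTTCCattgaaaaaa
ENSG00000203266: cccagctgctGGGAAGTCCCcgcagggcca
In the region of LINC00944, raised by TWEAK in SKBR3, 3 NF-κB and 2 AP-1 matches stand within 132 bases, chr12:126772512-126772643. A part of this stretch with an AP-1 and an NF-κB match recurs in it with few changes. Other raised members differ: ENSG00000278765, ENSG00000288816, LINC02015 and ENSG00000289377 had AP-1 matches but no NF-κB match in their regions. Motifs of the raised members were not compared with a background.
LINC00944: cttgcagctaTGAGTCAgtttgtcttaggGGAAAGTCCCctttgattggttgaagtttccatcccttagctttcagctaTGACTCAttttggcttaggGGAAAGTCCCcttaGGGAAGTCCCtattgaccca
A match is a description of letters and not a binding site.

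**Figure D4:**
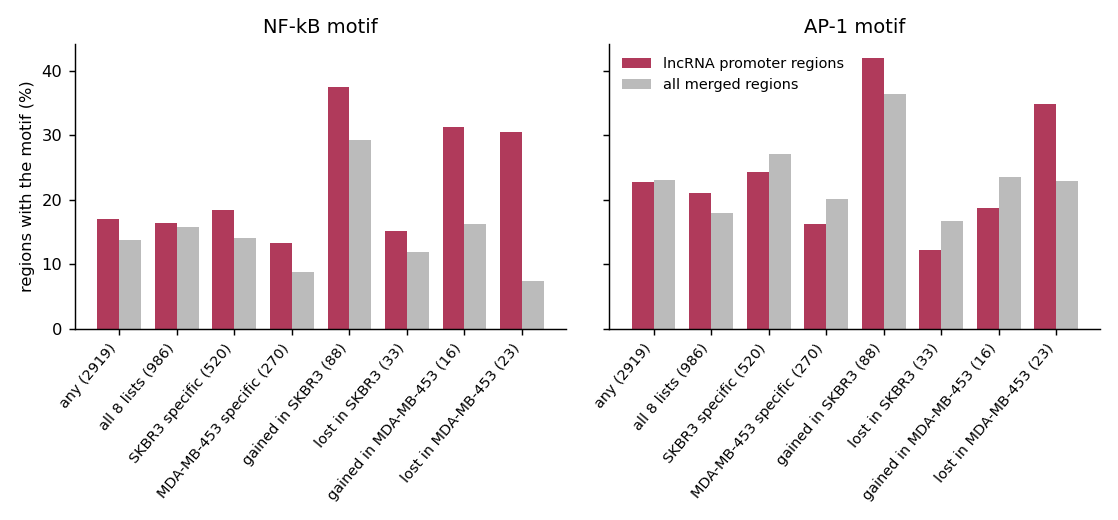
Percent of regions with an NF-κB (left) or AP-1 (right) match in the central 1000 bp, for lncRNA promoter regions (red) and all merged regions (grey), by presence pattern, with the number of lncRNA promoter regions in brackets. The tallest red bars are those gained in SKBR3, at 37.5% and 42.0%, against 17.0% and 22.7% over all members.

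Known lncRNAs were followed in 5 lists. Of 29 snoRNA hosts, genes whose introns carry small nucleolar RNAs, 12 had a member region, 13 regions in all, and 11 of these were in all 8 lists. SNHG25 was the highest ranked, at 78.6 to 92.8 in SKBR3 and 98.3 to 98.7 in MDA-MB-453. SNHG8 ranked at 83.6 to 92.5 in SKBR3 and 75.6 to 82.6 in MDA-MB-453. SNHG6 was lower in SKBR3 (61.6 to 78.5) than in MDA-MB-453 (90.3 to 93.5; log2 −1.02 ± 0.11, SE; limma adjusted p = 2.26e-05). DANCR was higher in SKBR3 (85.3 to 89.6 against 64.5 to 72.5; log2 0.67 ± 0.10, SE; limma adjusted p = 0.000223). SNHG26 was marked in the SKBR3 lists alone, at 14.2 to 56.4. Of the 11 tested, 2 were higher and 5 lower in SKBR3 (32.3% and 34.2% of all regions), and 0 were called with TWEAK in either line (1.06% of all regions in SKBR3 and 0% in MDA-MB-453).

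Of 45 microRNA hosts, 17 had a member, 18 regions, with 13 in all 8 lists. The region that MIRLET7BHG shares with PRR34-AS1 ranked at 93.1 to 98.4 over all lists and that of MIR9-3HG at 91.9 to 97.5. The former spans 52156 bp with 9 lncRNA genes, so its rank is not that of the MIRLET7BHG promoter alone. MIR23AHG (99.0 to 99.2 against 84.4 to 87.7), MIRLET7A1HG (96.9 to 98.6 against 81.6 to 85.9) and MIR17HG, host of an oncogenic microRNA cluster (94.5 to 99.0 against 69.5 to 75.2), were all higher in SKBR3, by log2 1.64, 0.90 and 1.56. MIR205HG, host of an epithelial microRNA, was higher too (75.1 to 89.1 against 21.0 to 38). MIR181A2HG was in the SKBR3 lists alone, at 74.8 to 91.3. Of the 13 tested, 5 were higher and 4 lower in SKBR3 (32.3% and 34.2% of all regions) and 0 were called with TWEAK (1.06% of all regions in SKBR3). MIR9-1HG was gained in SKBR3, at 15.9 and 20.7.

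The list of lncRNAs linked to NF-κB and inflammation had 20 genes, of which 6 had a member, 8 regions. The region of NEAT1, the scaffold of paraspeckles, ranked at 98.0 to 99.2 in every list. That region spans 41804 bp with 3 lncRNA genes, so its rank is not that of the NEAT1 promoter alone. A region of PELATON, a lncRNA of myeloid cells near CEBPB, ranked at 97 to 99.4 in SKBR3 and 39.2 to 52.5 in MDA-MB-453 (log2 1.63 ± 0.10, SE; limma adjusted p = 6.77e-07). LINC-PINT, a target of p53, had 62.3 and 59.2 in untreated and 81.9 and 96.3 in TWEAK-treated SKBR3 and no peak in MDA-MB-453. HULC, known from liver cancer, had 42.8 and 44.9 without and 56.2 and 67.0 with TWEAK, and no peak in MDA-MB-453. At both genes the treated pair lay above the untreated pair in percentile. In a limma fit on the 4 SKBR3 libraries alone neither passed, with a log2 difference in enrichment of 1.03 ± 0.24 (SE; limma adjusted p = 0.126) at LINC-PINT and of 0.33 ± 0.18 (SE; limma adjusted p = 0.634) at HULC. LUCAT1, a stress-induced lncRNA, had a first region at 50.3 and 34.9 without and 66.6 and 62.8 with TWEAK in SKBR3, lost in MDA-MB-453 from 1.08 and 2.02, and a second gained in SKBR3 at 24.5 and 27.4. CHROMR was in the MDA-MB-453 lists alone, at 10.8 to 40.2. Of the 3 tested, 2 were higher in SKBR3 (32.3% of all regions) and 0 were called with TWEAK (1.06% of all regions in SKBR3).

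Of 40 lncRNAs of breast cancer and luminal cells, 15 had a member, 21 regions, 9 of them in all 8 lists. DSCAM-AS1, a lncRNA of luminal tumours, ranked at 97.7 to 99.8 in all lists, and the region that holds the TSS of MALAT1 at 98.3 to 99.9. The latter spans 44181 bp with 8 lncRNA genes, so its rank is not that of the MALAT1 promoter alone. PVT1, beside MYC, had 4 regions, of which the strongest, 35179 bp wide, ranked at 98.1 to 99.9. H19, an imprinted gene, was in the SKBR3 lists alone, at 78.8 to 90.4, as was the region that UCA1 shares with LINC01764, at 48.7 to 64.6, and LINC01016, at 45.3 to 60.3. LINC00511 ranked at 94.6 to 99.2 in SKBR3 and had 1 peak in MDA-MB-453, at 8.50. PCAT1, known from prostate cancer, was in the MDA-MB-453 lists alone, its stronger region at 77.9 to 93.9. Of the 9 tested, 4 were higher and 3 lower in SKBR3 (32.3% and 34.2% of all regions) and 0 were called with TWEAK (1.06% of all regions in SKBR3).

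Of 29 lncRNAs held to be transcribed in most cells, 15 had a member, 17 regions, and 14 were in all 8 lists. NORAD ranked at 93.5 to 98.9, TERC, the RNA of telomerase, at 94.7 to 96.7 and CHASERR beside CHD2 at 97.4 to 99.3. The region that NUTM2A-AS1 shares with LINC00863 ranked at 92.6 to 98.0. KCNQ1OT1, which silences an imprinted domain, was in the SKBR3 lists alone, at 69.2 to 79.3. Of the 14 tested, 2 were higher and 4 lower in SKBR3, DLEU2 by the most (32.3% and 34.2% of all regions), and 0 were called with TWEAK (1.06% of all regions in SKBR3). Across the 5 lists, the median mean percentile of the regions ran from 55.8 to 81.4, against 47.9 for all members.

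**Figure D5:**
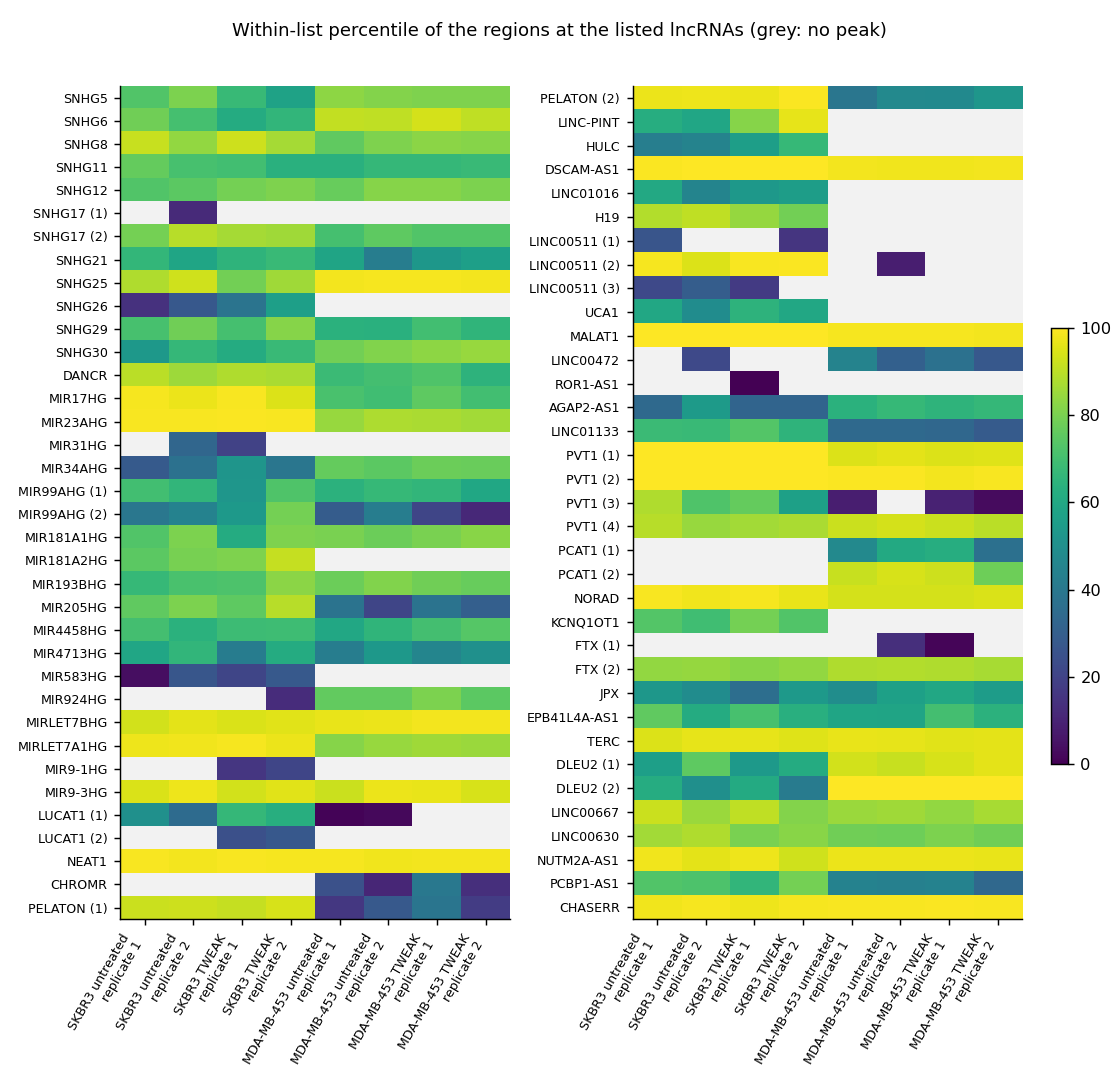
Within-list percentile (colour, 0 to 100) of the regions at the listed lncRNAs, 1 row per region and 1 column per library, with grey where a list has no peak. NEAT1, MALAT1, DSCAM-AS1, TERC and CHASERR are bright in all 8 columns, H19, UCA1 and KCNQ1OT1 are grey in the 4 MDA-MB-453 columns, and PCAT1 is grey in the 4 SKBR3 columns.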

How the data were processed

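H3K27ac ChIP-seq was analysed from 8 peak lists, 2 libraries in each of 4 groups. The authors aligned reads with Bowtie2 to hg38, called broad peaks per library with MACS2 against input and removed blacklisted regions (tools as named in the submitters' processing notes and the methods). Each deposited list gives the positions of the peaks, a fold enrichment ratio over input, a −log10 p, a −log10 q and a score. Reads and the 2 inputs were not analysed here, so the depth is unknown and no read-based test was run.

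Peaks overlapping by 1 bp were merged, and the enrichment of a region in a list was the mean over its peaks weighted by width. Counts were compared by exact permutation tests over libraries. The log2 fold enrichment at regions in all 8 lists was quantile normalised and tested with limma 3.58.1 (R 4.3.3) with a term for each group. Other steps used Python 3.11.15, numpy 2.4.6, pandas 2.3.3 and scipy 1.17.1. On simulated data limma recovered 85% of changes of log2 1 between lines and 50% of those with TWEAK in SKBR3. At log2 0.5 it recovered 24% between lines and 0% with TWEAK in SKBR3 (100 changed of 17704 regions each). Recovery was not tested for TWEAK in MDA-MB-453 or for the difference of the TWEAK effects. Named regions were the highest by mean percentile in each presence pattern, and the 4 with the lowest adjusted p per limma contrast and direction, with up to 6 per gene list by percentile or absence from 1 line. Other TWEAK calls and listed genes were named after their values were seen. The members, the gene lists and the motifs were chosen with earlier results of these data known, the NF-κB share of gained SKBR3 regions included. P-values measure the spread between these libraries. In the main limma fit the residual variance of a region is shared by all 4 groups. The p-values for TWEAK in SKBR3 therefore rest in part on the spread of the MDA-MB-453 libraries. One marker of the cell type check is not reported here.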

Additional observations from a re-analysis of the deposited data

Results flagged for a closer look

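In SKBR3 the list of TWEAK replicate 2 held 2150 lncRNA promoter regions, while the other 3 SKBR3 lists held 1933 to 1954. The gap to the nearest of the others took 0.903 of the range of the 4 lists, past Dixon's 95% critical value. This library also had the longest list, at 51687 peaks. Of 36 sets of 4 libraries looked at, 1 was past that value, and chance passes about 1 in 20.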

How the results depend on the processing

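Of the comparisons recomputed under each alternative, 214 values kept their direction and their side of the threshold or stayed close, 44 moved, 3 became stronger, 2 weaker and 7 reversed, and the cause was not tested. With peaks at a −log10 q of at least 5, the line difference in regions per list was 52.75, the difference in share 0.433 points, the SKBR3-specific share 14% (11% of all regions), gained and lost in SKBR3 5.82% and 0.401% (5.58% and 0.676% of all regions), the MDA-MB-453-specific share 13.4% (14.6%), lost in MDA-MB-453 0.641% (1.24%) and the TWEAK difference there 2.5 regions, reversed. With lists of equal size the share differed by 0.469 points and the specific shares were 14.9% in SKBR3 (11.9% of all regions) and 11.9% in MDA-MB-453 (14.8%). With peaks covering at least 50% of a region the share differed by 0.435 points, gained and lost were 5.64% and 1.91% in SKBR3 (5.66% and 2.14% of all regions) and 1.66% and 2.31% in MDA-MB-453 (1.94% and 2.11%), and the MDA-MB-453-specific share was 13.4% (11.9%). The share gained in SKBR3 thus went from below that of all regions to above it at the stricter q, and the MDA-MB-453-specific share did so at 50% cover. With a lncRNA TSS inside the region the share difference reversed to −0.101 points, and gained and lost in SKBR3 were 2.72% and 0.851% (4.64% and 1.39% of all regions). The TWEAK difference in MDA-MB-453 reversed to 1 region with peaks up to 1 kb apart merged and to 1.5 with all transcripts, which put gained in SKBR3 at 4.32% (4.64% of all regions). The limma fit on the 4 libraries of SKBR3 called 8 of 1609 members with TWEAK (0.497% against 0.459% of all regions).

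Leaving out 1 library at a time gave 349 to 439.5 regions for the line difference, 0.00443 to 0.122 points for the share, 12.5 to 210 regions for TWEAK in SKBR3 and −22 to 23 for TWEAK in MDA-MB-453 (reversed at 0.5, 3.5 and 23). The SKBR3-specific share was 18.1% to 19.8%, gained in SKBR3 3.51% to 11.9% and lost 1.32% to 6.36%. The MDA-MB-453-specific share was 9.45% to 10.8%, gained there 0.921% to 3.22% and lost 1.32% to 3.44%. Rank against protein-coding promoters was −14.8 to −14.2 points and against distal regions 21.9 to 22.5, and sharing was −22.5 to −20.05 and 21.4 to 23. Members called by limma were 640 to 743 between lines, 0 to 105 with TWEAK in SKBR3, 0 in MDA-MB-453 and 0 to 21 for the difference of the TWEAK effects, with 21 without SKBR3 TWEAK replicate 1 (1.58% of all regions). For TWEAK in SKBR3, leaving out any 1 library of MDA-MB-453 gave 2 to 3 calls (0.123% to 0.257% of all regions). Of the values of named regions in limma, 144 kept their call and 100 lost it, with 0 reversed. These numbers pool the line contrast with TWEAK in SKBR3 and are not split between them. The named line regions had a limma adjusted p of 2.57e-07 or less. Those raised by TWEAK were much nearer the threshold, with a limma adjusted p of 0.00986 to 0.0430.

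Replicate numbers were not shown to pair the libraries. Deviations of same-numbered libraries correlated at 0.46 in SKBR3 and −0.06 in MDA-MB-453 over 17704 regions. With the replicate number as a block the line difference of 417 regions had an exact permutation p of 0.125, the smallest that 4 pairs allow, and limma called 55 members with TWEAK in SKBR3 (5.58% against 4.02% of all regions) against 15 without the block (1.52% against 1.06% of all regions). The depth of the libraries is unknown.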

Other observations

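The median width of members and their share with a CpG ratio of 0.6 mostly rose with the number of lists, though not at every step. A merged region spans the peaks of every list that holds it, so its width is not independent of that number. Those in 1 list had a median width of 486 bp, and 5.10% reached a CpG ratio of 0.6, against 3819 bp and 26.0% of those in 8 lists. Among all merged regions 1.69% of those in 1 list and 33.9% of those in 8 lists reached it. The share of members was 13.6% at 4 lists, 19.6% at 6 and 9.47% at 7. LncRNA genes antisense within a coding gene had 25.9% of their regions in all 8 lists and 22.2% specific to SKBR3, while those outside coding genes had 37.6% and 15.6%. Regions named by a snoRNA host were in all 8 lists in 11 of 14 cases and those named by a microRNA host in 18 of 28. These shares are descriptions, since regions of a list are not replicates.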
